A study of Mus musculus with 4 samples.

Results

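The Krüppel-like factors examined here are 10 transcription factor genes of the mouse, Klf2, Klf3, Klf4, Klf5, Klf6, Klf7, Klf9, Klf10, Klf13 and Klf15. They were taken from the 23281 gene symbols of the deposited expression table by exact symbol, and all 10 were listed. RNA sequencing gave 1 library of respiratory basal cells (RBCs), taken from the animal, and 3 libraries of horizontal basal cells (HBCs) of the olfactory epithelium, grown in culture to passage 3 under control conditions. The RBCs were microdissected and sorted as TdTomato+ cells from the strain KRT5-CreER;Ai9-fl(stop)TdTomato, in which an inducible Cre recombinase made under the keratin 5 promoter switches on a red reporter, so the sort takes cells in which that promoter was active at induction and their descendants. The HBC cultures came from mice labelled wildtype, and the labels state no sort for these cultures. The labels used here state no ages, and they do not say whether the 3 cultures came from separate animals. The p-values below therefore reflect the spread among these cultures alone, and that spread may be technical. The RBC library has no replicate, and every test assumes that it varies as the HBC libraries do. Tissue, culture, strain and sorting all differ between the groups and cannot be told apart.

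Krüppel-like factors bind GC-rich and CACCC-type DNA through zinc fingers at the C terminus of the protein, and differ in the remainder, through which some recruit activators and others recruit corepressors. In stratified epithelia Klf5 is known as a factor of the proliferating basal layer and Klf4 as a factor of the differentiating upper layers, where it is needed for the skin barrier of the mouse. Several members are induced within minutes to hours by serum, stress or injury, whereas Klf9 and Klf15 respond to glucocorticoids and to the circadian clock.

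Levels are given as depth-scaled FPKM, the deposited fragments per kilobase of transcript divided by 1 factor per library. A gene was called when limma's adjusted p was under 0.05 and its log2 change, RBC minus HBC, was at least 1 in size, which is 2-fold. Log2 changes are on the scale log2(value + 1), which understates the change of low genes. The deposited values summed to 9877606 in the RBC library and to between 8377232 and 10855996 in the HBC libraries, and read numbers are not stated in the labels used here. Basal cell markers were present in both groups: 8 of 11 were called higher in RBCs, against 34.2% of all genes tested, and 3 were not called. With equal library medians, 6 were called higher and 2 lower. Keratin 5 was at 26422 in the RBC library and 18579 ± 368 in HBC libraries (SD, n = 3). Most markers of other cells differed too. Over 7 lists, of olfactory neuron, ciliated, fibroblast, leukocyte, endothelial, secretory and gland, and smooth muscle and pericyte markers, 59 genes passed the filter on low values, but 31 of them averaged under 1 in HBC libraries and so passed only through the RBC library, which leaves their calls without weight. Of the other 28, 23 were called higher in RBCs, among them 6 of 6 ciliated, 5 of 5 olfactory neuron, 5 of 5 fibroblast and 4 of 5 leukocyte markers. The remaining lists gave 2 of 3 secretory and gland, 1 of 3 smooth muscle and pericyte, and 0 of 1 endothelial markers. Cd68, Ltf and Egfl7 were called lower, at 65.5, 18041 and 19.3 in the RBC library, against 514 ± 42.5, 118866 ± 1159 and 108 ± 27.1 in HBC libraries (SD, n = 3). On the deposited scale Ltf was no longer called (adjusted p = 0.0733, limma). Egfl7 was no longer called when HBC library 2 was left out (adjusted p = 0.0735, limma). Squamous and suprabasal markers divided, with 4 of 9 called higher and 2 lower. The 4 include genes that averaged 0.172 and 0.255 in HBC libraries. Such genes passed only through the RBC library, which leaves their calls without weight. With a pseudocount of 0.1, 2 of these markers were called higher. The libraries hold bulk RNA, in which more cells of a type and more RNA per cell cannot be told apart.

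The 3 genes called different, Klf2, Klf13 and Klf15, are shown here by the 250 bases upstream of their RefSeq transcription start (mouse build GRCm38.p6), since sites for Krüppel-like and clock factors lie in such windows. The stretches are Klf2 at chr8:72318812-72319061 on the plus strand, Klf13 at chr7:63938916-63939165 on the minus strand, and Klf15 at chr6:90462326-90462575 on the plus strand. Capitals mark the CACCC box (CACCC or its complement GGGTG) in the stretches of Klf2 and Klf13, and the E-box CACGTG, the element bound by the clock activators, in that of Klf15.
Klf2: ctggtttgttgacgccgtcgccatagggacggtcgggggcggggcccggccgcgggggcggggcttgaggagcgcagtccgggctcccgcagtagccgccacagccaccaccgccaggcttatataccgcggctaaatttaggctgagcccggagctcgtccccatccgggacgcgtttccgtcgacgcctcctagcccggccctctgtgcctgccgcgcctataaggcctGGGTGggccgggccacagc
Klf13: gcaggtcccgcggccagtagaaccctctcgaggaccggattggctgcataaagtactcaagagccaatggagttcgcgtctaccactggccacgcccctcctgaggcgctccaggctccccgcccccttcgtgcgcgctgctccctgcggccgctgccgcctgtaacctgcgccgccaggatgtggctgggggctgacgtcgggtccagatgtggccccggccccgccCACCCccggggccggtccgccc
Klf15: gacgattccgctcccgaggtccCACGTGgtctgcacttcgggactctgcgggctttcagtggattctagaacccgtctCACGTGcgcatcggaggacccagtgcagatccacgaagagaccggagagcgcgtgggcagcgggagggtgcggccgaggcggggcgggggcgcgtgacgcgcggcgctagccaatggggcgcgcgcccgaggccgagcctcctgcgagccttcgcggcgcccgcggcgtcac
The Klf15 stretch held 2 E-boxes, which began 228 and 172 bases upstream of the start. Upstream stretches were found for 8 of the 10 genes, and Klf4, Klf6 and Klf15 held CACGTG, against 6.02% of all 32851 stretches of this length in the RefSeq table. A CACCC box, read on both strands, was in 6 of the 8 and in 52.0% of all stretches. The GC box GGGCGG, also read on both strands, was in 7 of the 8 and in 32.7% of all stretches. The CACCC box of Klf13 overlapped a GC box and that of Klf2 did not. Upstream of Klf9 there was 1 CACCC box and no E-box or GC box. These matches describe the letters only and say nothing of binding.

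The family was expressed in both groups, and 3 of its 10 genes rose in the RBC library. The 3 were Klf2 and Klf15, which were low in the HBC cultures, and Klf13. The share of all 16438 genes tested that were called higher in RBCs was 34.2%, so that a count of 3 in 10 is close to the background. None was called lower, against 12.8% of all genes, and at an unadjusted p under 0.05 the count of lower genes was also 0. In all 10 genes the RBC value lay above the 3 HBC values, as it did in 58.6% of all genes tested, but with equal library medians the log2 change was above 0 in 6 of the 10, and under quantile normalization in 9. The median log2 change was 0.68 for the 10 genes and 0.45 for all genes tested, and 6 of the 10 lay above the median of all genes. With no minimum on size, 8 of the 10 passed an adjusted p of 0.05 as higher in RBCs, against 46.8% of all genes. Of those 8, 5 differed by less than 2-fold. This count depends on the scaling. With values as deposited, Klf4, Klf9 and Klf10 did not pass. With equal sums or quantile normalization, Klf3 passed as higher too. With equal library medians, Klf3, Klf4 and Klf9 passed as lower (log2 changes -0.41, -0.15 and -0.16).

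**Figure D1:**
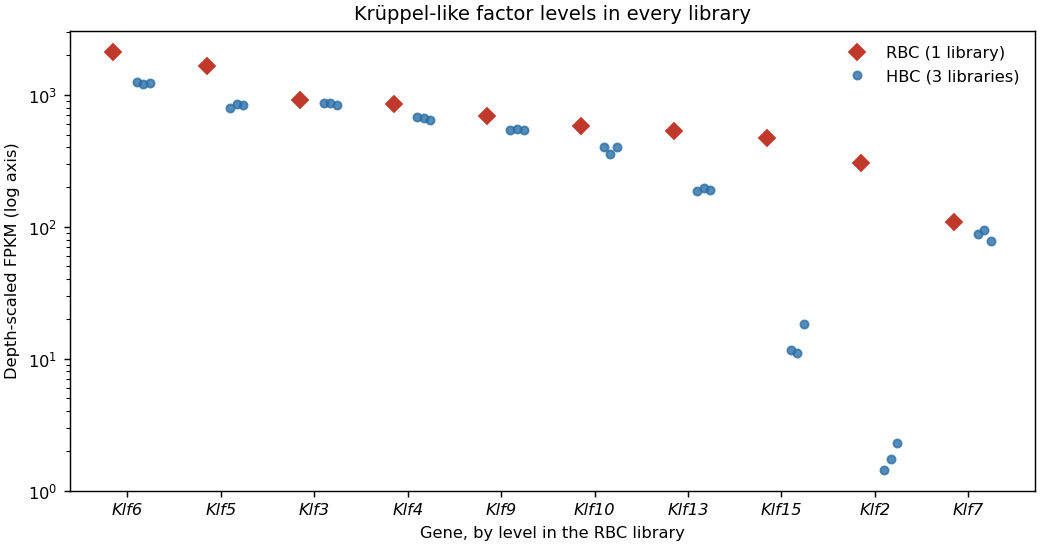
Depth-scaled FPKM (log axis) of the 10 Krüppel-like genes in the RBC library (diamonds) and the 3 HBC libraries (circles), ordered by the RBC level. The RBC value lies within 2-fold of the HBC mean for 7 genes, and the widest gaps are those of Klf2 (305 in the RBC library) and Klf15 (471 in the RBC library).

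Klf2, a factor of endothelial quiescence and of T cell trafficking, stood at 305 in the RBC library, against 1.43, 1.73 and 2.28 in HBC libraries 1, 2 and 3. It was thus well expressed in the RBC sample and near the limit of the table in each culture. Scaled by its transcript length of 1.85 kb, the deposited Klf2 value was 488 times the typical smallest step of the table in the RBC library, against 1.82, 2.73 and 3.67 times in the HBC libraries, so the HBC values are of the order of single reads and no fold is given. On the log2 scale the change was 6.78 (SE 0.223, limma adjusted p = 0.00102). Among all genes, Klf2 ranked above 77.6% in the RBC library and above 42.9% by its HBC mean.

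Markers of cell types in which Klf2 is known to be active stood at differing levels in the RBC library. The 12 endothelial markers summed to 126 in the RBC library and to between 88.2 and 141 in HBC libraries. Of the 12, 11 averaged under 1 in HBC libraries and passed the filter on low values only through the RBC library. The HBC sum was mostly Egfl7 (19.3 in the RBC library, against 85.4, 102 and 138 in HBC libraries), and without it the other 11 summed to 107 in the RBC library and to between 2.77 and 4.45 in HBC libraries. Tie1, Emcn and Cldn5 were listed at 0 in all HBC libraries. The 12 leukocyte markers summed to 16061 in the RBC library and to between 525 and 604 in HBC libraries, with Csf1r and Tyrobp at 0 in the HBC libraries. Those sums were mostly the lysozyme gene Lyz2 in the RBC library (14733) and the lysosomal gene Cd68 in HBC libraries, and the other 10 markers summed to 1262 in the RBC library and to between 19.7 and 26.1 in HBC libraries. The pan-leukocyte gene Ptprc was at 10.5 and the T cell gene Cd3e at 2.25 in the RBC library, against 0.248 ± 0.215 and 0.313 ± 0.542 in HBC libraries (SD, n = 3). Both passed the filter only through the RBC library, and Cd3e was not called (limma adjusted p = 0.117). Ptprc was not called under quantile normalization (log2 change 0.70). The part of endothelial cells and leukocytes in the Klf2 level was not tested.

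Of 5 genes reported as Klf2 targets in endothelium and T cells, 3 passed the filter on low values. Among these, 2 were not called and 1 was called lower, against 12.8% of all genes tested. The gene called lower was Thbd, which encodes the thrombin-binding surface protein thrombomodulin, at 17.6 in the RBC library against 40.9, 37.3 and 41.8 in HBC libraries (log2 change -1.14, SE 0.119, limma adjusted p = 0.00794). That call was lost with a pseudocount of 5 (log2 change -0.99). The integrin gene Itgb7 was at 74.0 in the RBC library and 120 ± 4.12 in HBC libraries (SD, n = 3) and was not called. It was called lower with equal library medians (log2 change -1.19) and under quantile normalization (-1.67). The list's count of lower genes was 2 with equal library medians. Under quantile normalization it was 3, so that every tested gene of the list was called lower.

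Klf15, a glucocorticoid-induced regulator of amino acid and glucose metabolism in muscle and liver, was at 471 in the RBC library, against 11.6, 11.1 and 18.5 in the HBC libraries. The lowest gap, to HBC library 3, was 25.5-fold, and the RBC value was 34.3 times the HBC mean. Its log2 change was 5.03 (SE 0.388, limma adjusted p = 0.00449). HBC library 3 lay above the other cultures, and Klf15 had the widest spread of the family among cultures, with an SD of 29.9% of the mean. The 7 smooth muscle and pericyte markers summed to 1795 in the RBC library and to between 481 and 533 in HBC libraries, with Cnn1 at 0 in the cultures. Of the 7, 4 averaged under 1 in HBC libraries and passed the filter on low values only through the RBC library. Among the other 3, 1 was called higher. Rgs5 and Notch3, neither of them called, made up most of the HBC sum. Without them the other 5 markers summed to 1265 in the RBC library and to between 2.26 and 3.56 in HBC libraries, and the part of such cells in the Klf15 level was not tested.

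Klf13, a factor that binds the Sin3a corepressor and is known as a regulator of chemokine expression in T cells, was at 531 in the RBC library, against 186, 196 and 191 in the HBC libraries. The cultures lay close together and the RBC value was 2.78 times their mean. The log2 change was 1.47 (SE 0.0424, limma adjusted p = 0.000822). With equal library medians it was 0.96, just under the 2-fold minimum, and the call was lost.

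Klf5, the factor of proliferating basal epithelium, was at 1648 in the RBC library, against 790.0, 855 and 832 in the HBC libraries. The groups did not overlap, and the ratio of 1.995 to the HBC mean put the gene at the threshold. On the log2 scale the change was 0.997 with a 95% interval of 0.795 to 1.198 (limma adjusted p = 0.00281), so it was not called. It passed the minimum with values as deposited (log2 change 1.11), with equal sums (1.10), under quantile normalization (1.32), and without HBC library 2 (1.02) or 3 (1.0005). With equal library medians the change was 0.49.

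Klf6, a broadly expressed and injury-inducible factor, was the most abundant member in every library, at 2111 in the RBC library and 1249, 1203 and 1241 in the HBC libraries. The RBC value was 1.71 times the HBC mean (log2 change 0.78, SE 0.0303, limma adjusted p = 0.00137), short of the 2-fold minimum. Quantile normalization took it past that minimum (log2 change 1.10). Klf10, named for its early induction by TGF-beta, was at 578 in the RBC library, against 402, 356 and 406 in HBC libraries. Its change of 0.58 had a 95% interval of 0.219 to 0.933, which lies below 2-fold.

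Klf4, the barrier factor of upper epidermal layers, was at 851 in the RBC library, against 680.0, 669.6 and 643 in HBC libraries. The values were close, with a ratio of 1.28 to the HBC mean and a 95% interval of the log2 change of 0.213 to 0.503. Klf9, a glucocorticoid-responsive factor that restrains proliferation in human keratinocytes, was at 688 in the RBC library and at 538, 547 and 545 in HBC libraries. It was the least variable member among cultures, with an SD of 0.903% of the mean. Its 95% interval was 0.284 to 0.397, so both genes differed by well under 2-fold. Both changes turned below 0 with equal library medians (-0.15 for Klf4 and -0.16 for Klf9).

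Klf3, which recruits the corepressor CtBP, had nearly the same depth-scaled level in both groups. It was at 917 in the RBC library, against 871, 864 and 840.3 in HBC libraries, and its 95% interval of -0.00208 to 0.193 includes 0 (limma adjusted p = 0.0670). Klf7, known in mouse olfactory neurons for its part in axon growth, was the lowest member in the RBC library, at 108, against 87.9, 94.3 and 77.4 in HBC libraries. Its interval of -0.188 to 0.826 also includes 0 (limma adjusted p = 0.153). The 9 olfactory neuron markers summed to 5536 in the RBC library and to between 133 and 169 in HBC libraries, with Stoml3, Rtp1 and Stmn2 at 0 in the cultures.

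**Figure D2:**
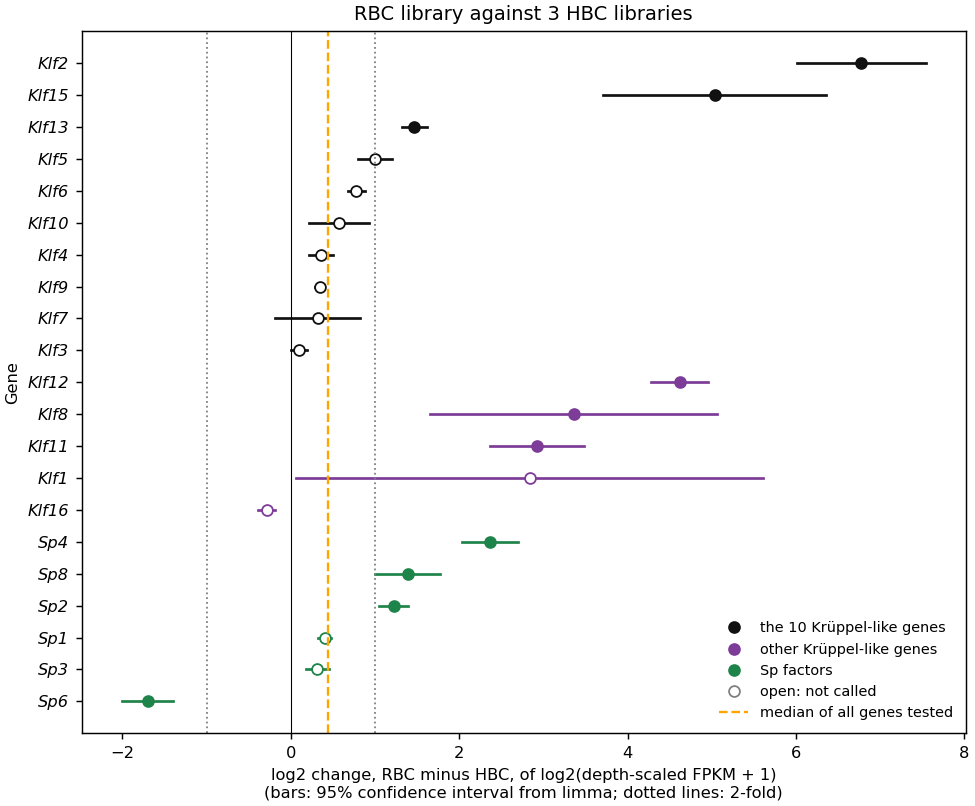
Log2 change, RBC minus HBC, with limma's 95% confidence interval for the 10 Krüppel-like genes, for other Krüppel-like genes and for Sp factors, with filled points for called genes. Klf2, Klf15 and Klf13 lie beyond 2-fold (dotted lines), Klf5 lies on the line, and 7 of the 10 are not called.

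The order of the members by level, which FPKM allows since it is per length, was much the same in both groups. In the RBC library it ran Klf6, Klf5, Klf3, Klf4, Klf9, Klf10, Klf13, Klf15, Klf2 and Klf7. By HBC mean it ran Klf6 (1231 ± 24.4, SD, n = 3), Klf3 (858 ± 16.0), Klf5 (826 ± 33.2), Klf4 (664 ± 18.9), Klf9 (543 ± 4.91), Klf10 (388 ± 27.4), Klf13 (191 ± 5.23), Klf7 (86.6 ± 8.53), Klf15 (13.7 ± 4.10) and Klf2 (1.81 ± 0.430). Klf3 and Klf5 overlapped among the cultures, and no other neighbours in that order did. The RBC order has no spread of its own.

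Summed over the 10 genes, the level was 8207 in the RBC library and 4804 ± 10.5 in HBC libraries (SD, n = 3), a ratio of 1.71. These sums made up 0.0883% of all depth-scaled values in the RBC library and between 0.0473% and 0.0488% in HBC libraries. Shares within the family do not depend on the library factors. Klf6 took 25.7% of the sum in the RBC library and 25.6 ± 0.478% in HBC libraries. Klf5 took 20.1% in the RBC library and 17.2 ± 0.724% in HBC libraries, and Klf3 took 11.2% in the RBC library and 17.9 ± 0.306% in HBC libraries. Klf2, Klf13 and Klf15 together took 15.9% in the RBC library and 4.30 ± 0.155% in HBC libraries.

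**Figure D3:**
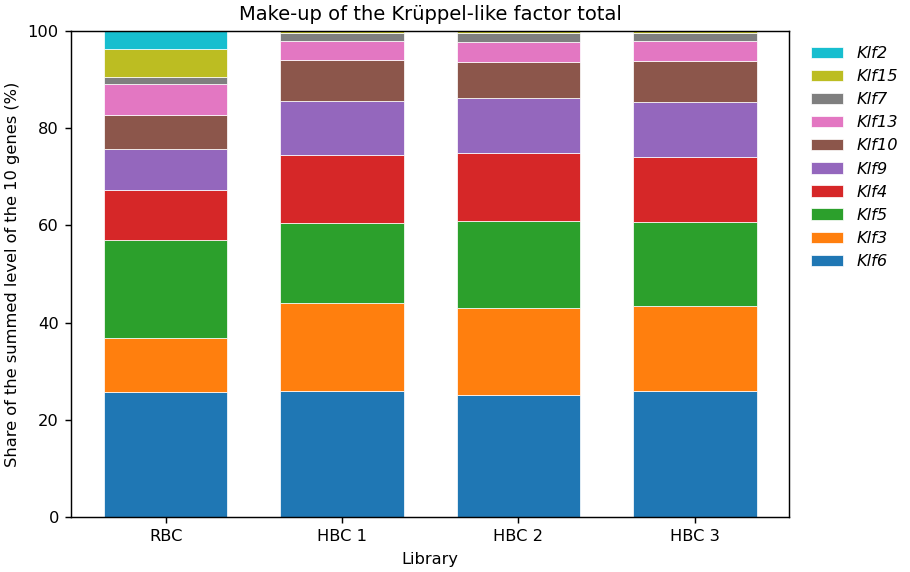
Share of the summed depth-scaled FPKM of the 10 Krüppel-like genes taken by each gene (%), in the RBC library and HBC libraries 1, 2 and 3. Klf6 takes 25.7% in the RBC library and 25.6% on average in HBC libraries, while the segments of Klf2 and Klf15 are visible in the RBC bar and nearly absent from the HBC bars.

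By distance over the 4 libraries on the log2 scale, the genes nearest to Klf5 in level were Arhgdib (0.172), Pkp1 (0.173) and Anapc5 (0.222). With 4 libraries this likeness is one of level in each group, over all 16438 genes tested.

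Of the 7 other Krüppel-like genes, 5 passed the filter on low values. Among these, 3 were called higher in RBCs, against 34.2% of all genes tested, and 2 were not called, with a median log2 change of 2.93. Klf8 and Klf1 averaged under 1 in HBC libraries and so passed only through the RBC library, which leaves the call of Klf8 without weight. The median includes both. Klf11, a TGF-beta-inducible repressor and relative of Klf10, was at 199 in the RBC library, against 27.9, 22.7 and 25.5 in HBC libraries (log2 change 2.93, limma adjusted p = 0.00254). Klf12, a CtBP-binding repressor like Klf3, was at 94.3 in the RBC library, against 3.14, 2.70 and 2.82 in HBC libraries (log2 change 4.62, limma adjusted p = 0.000461). Klf8 was at 17.6 in the RBC library and 0.873 ± 0.580 in HBC libraries (SD, n = 3), and it was no longer called when HBC library 1 (limma adjusted p = 0.0700) or 2 (0.0533) was left out, with a pseudocount of 0.1 (0.0564) and under quantile normalization (0.162). Klf1, the erythroid member, was at 11.8 in the RBC library and 0.982 ± 1.04 in HBC libraries and was not called (limma adjusted p = 0.0614), though it was with a pseudocount of 5 (0.0179) or a minimum of 5 (0.0476). Klf16 was at 205 in the RBC library, against 255, 249 and 246 in HBC libraries, and was not called. Klf14 and Klf17 did not pass the filter on low values.

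Sp factors, which share the zinc fingers and bind GC boxes, moved both ways. Of 9, 7 passed the filter, 4 were called higher and 1 lower in RBCs, beside 34.2% and 12.8% of all genes tested. Sp4, known from neurons, was at 149 in the RBC library and 28.0 ± 1.26 in HBC libraries (SD, n = 3), while Sp8 was at 296 in the RBC library and 113 ± 8.68 in HBC libraries. Sp2 was at 159.8 in the RBC library and 68.0 ± 1.16 in HBC libraries. With equal library medians the log2 changes of Sp2 and Sp8 were 0.72 and 0.88, short of 2-fold, and quantile normalization gave 0.69 for Sp2. Sp7, the fourth, was at 3.55 in the RBC library and listed at 0 in all HBC libraries, where the filter alone fixes its call. Sp6, a factor of ectodermal appendages and teeth, was at 63.7 in the RBC library, against 215, 218 and 195 in HBC libraries (log2 change -1.70, SE 0.0891, limma adjusted p = 0.00227). The ubiquitous Sp1 and Sp3 were at 524 and 684 in the RBC library and at 396 ± 5.48 and 551 ± 14.7 in HBC libraries, and were not called.

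Most cofactors and ubiquitin ligases of Krüppel-like factors were not called, as were 8714 of all 16438 genes tested. Of 13 tested, 2 were called higher in RBCs, 2 lower and 9 were not called, with a median log2 change of 0.02. Over all genes tested, 34.2% were called higher and 12.8% lower. The acetyltransferase genes Crebbp and Ep300 were 2.99-fold and 2.06-fold higher in the RBC library, where they were at 186 and 404, against 62.1 ± 6.41 and 196 ± 8.57 in HBC libraries (SD, n = 3), and Ep300 was short of 2-fold with equal library medians (log2 change 0.54) and under quantile normalization (0.998). Smurf1, a ligase reported to degrade Klf2, was at 243 in the RBC library and 562 ± 16.3 in HBC libraries. The deacetylase gene Hdac2 was at 1008 in the RBC library and 2280 ± 55.1 in HBC libraries and missed the minimum under quantile normalization (log2 change -0.90).

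Most reported targets of Klf4 and Klf5 in epithelia fell in the RBC library, while Klf4 and Klf5 were themselves not called. Of 10 targets tested, 6 were called lower, against 12.8% of all genes tested, and 2 higher, against 34.2%. The other 2 were not called, and the median log2 change was -2.65. The counts do not separate activated from repressed targets, so they give no reading of Klf4 or Klf5 activity. Involucrin (Ivl), a cornified envelope precursor, was at 8.05 in the RBC library, against 2638, 2502 and 2335 in HBC libraries (log2 change -8.10, SE 0.0887, limma adjusted p = 0.000108). Sprr1a, another envelope precursor, was at 1871 in the RBC library and 18154 ± 204 in HBC libraries (SD, n = 3). In the other direction, Krt4 was at 350.2 in the RBC library and 68.3 ± 5.67 in HBC libraries, and the growth factor gene Pdgfa was at 1182 in the RBC library and 366 ± 19.6 in HBC libraries.

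**Figure D4:**
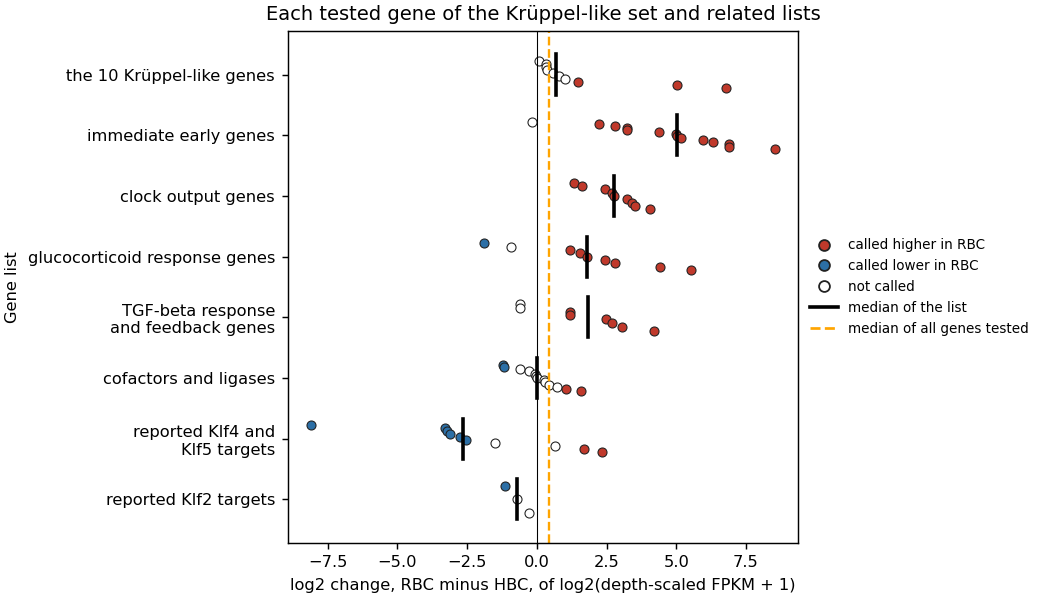
Log2 change, RBC minus HBC, of every tested gene in the Krüppel-like set and in 7 related lists, filled where called, with each list's median as a bar and the median of all genes tested (0.45) as a dashed line. Most of the 10 Krüppel-like genes lie between 0 and 1, while 13 of 14 immediate early genes and 9 of 9 clock output genes are called higher in RBCs.

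Immediate early genes, the class induced by serum and by tissue dissociation to which Klf2, Klf4, Klf6 and Klf10 are usually assigned, were far higher in RBCs. The count was 13 called higher of 14 tested, against 34.2% of all genes tested, with 1 not called. The median log2 change was 5.02, beside 6.78 for Klf2, 0.36 for Klf4, 0.78 for Klf6 and 0.58 for Klf10. Fos, an AP-1 subunit, was at 26517 in the RBC library and 220 ± 6.71 in HBC libraries (SD, n = 3). Egr2 was at 742 in the RBC library, against 2.94, 0 and 0.998 in HBC libraries. It was not called when HBC library 3 was left out (limma adjusted p = 0.0550) and with a pseudocount of 0.1 (0.0504). Ier3 was at 2364 in the RBC library and 2653 ± 132 in HBC libraries and was not called, and its change turned above 0 under quantile normalization.

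Clock output genes were higher in the RBC library throughout. All 9 that were listed were called higher, against 34.2% of all genes tested, with a median log2 change of 2.78. The period gene Per3 was at 477 in the RBC library and 27.8 ± 2.63 in HBC libraries (SD, n = 3), and the clock repressor gene Nr1d1 was at 2986 in the RBC library and 259 ± 11.2 in HBC libraries. Klf15 (log2 change 5.03) moved in the same direction as these genes, whereas Klf9 (0.34) and Klf10 (0.58), both known as clock outputs in mouse tissues, were not called. The labels used here state no hour of collection.

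Glucocorticoid response genes were divided. Of 9 tested, 7 were called higher in RBCs, 1 lower and 1 was not called, beside 34.2% of all genes tested called higher. The list shares a gene with the immediate early list and a gene with the clock list, both called higher, and it includes the gene of the receptor itself. Sgk1, a kinase gene induced by corticosteroids, was 21.7-fold higher, at 4390.4 in the RBC library and 203 ± 9.71 in HBC libraries, and Zbtb16 was at 53.9 in the RBC library, against 0, 0.379 and 0.187 in HBC libraries. Zbtb16 thus passed the filter on low values only through the RBC library, which leaves its call without weight. Fkbp5, the receptor's feedback chaperone, went the other way, at 148 in the RBC library and 550.1 ± 9.46 in HBC libraries (SD, n = 3). Ddit4 was at 2633 in the RBC library and 5057 ± 213 in HBC libraries, was not called, and was called lower with equal library medians (log2 change -1.45). The glucocorticoid-responsive members Klf9 and Klf15 were likewise unlike each other, with log2 changes of 0.34 and 5.03.

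Of 8 genes listed for TGF-beta response and feedback, 6 were called higher in RBCs, against 34.2% of all genes tested, and 2 were not called. The log2 change was 0.58 for Klf10 and 2.93 for Klf11. Genes that respond to other ligands of the same family were not set apart, so the count gives no reading of TGF-beta signalling. The inhibitors of differentiation and of signalling Id3 and Smad6 were at 1271 and 263 in the RBC library and at 68.8 ± 14.9 and 31.0 ± 3.72 in HBC libraries (SD, n = 3). Tgif1 and Id2 were at 1158 and 1264 in the RBC library and 1774 ± 46.9 and 1903 ± 57.3 in HBC libraries, and both were called lower with equal library medians (log2 changes -1.12 and -1.09).

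**Figure D5:**
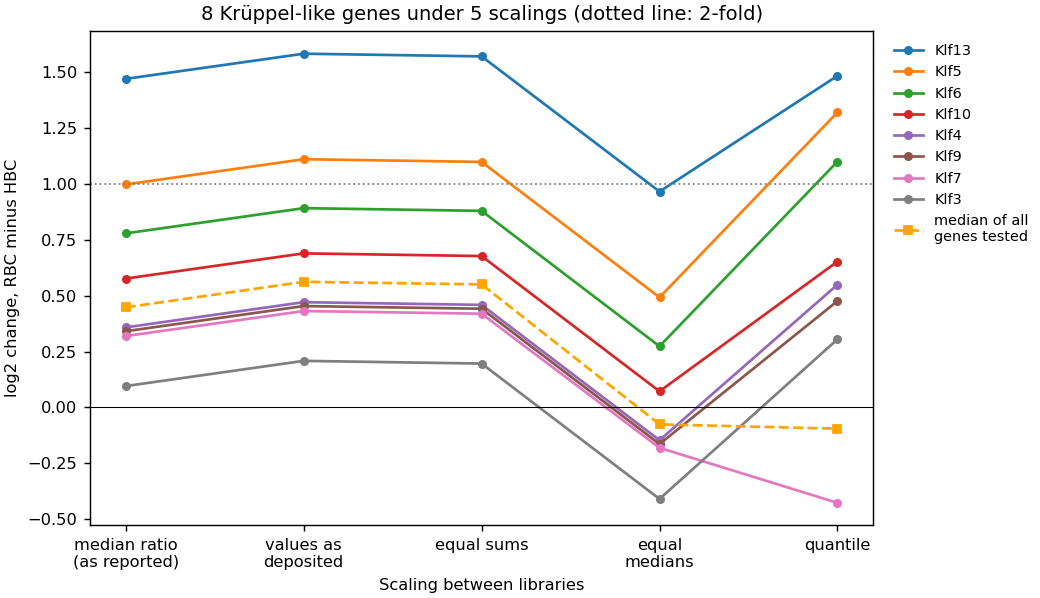
Log2 change, RBC minus HBC, of 8 Krüppel-like genes (Klf2 and Klf15, at 4.54 or more throughout, are left out) and the median of all genes tested (dashed) under 5 scalings between libraries. The order of the genes is kept under each scaling but the last, and with equal medians Klf13 is at 0.96 while Klf3, Klf4, Klf7 and Klf9 lie below 0.

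The size of the changes depends on how the libraries are scaled. With equal library medians, the median log2 change of all genes moved by -0.52, and under quantile normalization by -0.54, whereas it moved by 0.11 with values as deposited and by 0.10 with equal sums. Relative to the median of all genes, 6 of the 10 members lay above it under each of these scalings except quantile normalization, where 9 did. Klf2, Klf5, Klf6, Klf10, Klf13 and Klf15 had a log2 change above 0 under every scaling tried. Klf2 and Klf15 were called under all 12 alternatives, with log2 changes of 5.51 to 7.34 for Klf2 and 4.54 to 5.25 for Klf15.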

How the data were processed

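RNA was sequenced from 1 library of sorted respiratory basal cells and 3 libraries of cultured horizontal basal cells. The authors deposited 1 table with 1 FPKM value per gene symbol and library. STAR, Cufflinks 2.2.1 and Cuffnorm, and the build mm9, are named in the submitters' processing notes with no roles. Annotation, strandedness and filtering: not given in the sources used here. Columns were matched to samples by name and title.

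In low genes (all values under 4), the values of 2 libraries lay within 2% of each other for 12.4% to 26.0% of genes, depending on the pair, although the column sums differ, so the deposited FPKM values were taken to carry depth. Each library was divided by 1 factor, its median ratio to the geometric mean of the 4 libraries, taken from 11134 genes whose lowest value was at least 10. The factor was 1.06 for the RBC library and 0.845, 1.05 and 1.07 for HBC libraries 1, 2 and 3. The smallest step of the table was the median, over 787 low genes with a single GENCODE M21 transcript, of the smallest value times transcript length. Counts are not part of the table, so no counting interval is given.

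Genes were tested where the 2 group levels, weighted equally, averaged at least 1 (16438 genes, all 10 members included). The test was limma (version 3.58.1, R 4.3.3) on log2(value + 1) (lmFit, eBayes with trend, 2 residual degrees of freedom, two-sided), with Benjamini-Hochberg adjustment over all genes tested. Upstream sequences came from RefSeq on GRCm38.p6, not the build of the files, and were matched by symbol.

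The members and the gene lists were chosen with earlier results of these data known. All 10 members were named. Of each list on pathways, up to 4 genes were named, those with the largest changes in each direction, and all other Krüppel-like genes and Sp factors could be named. For Klf5, the 3 genes nearest in level were named, and the same result for Klf4 is not reported here. Keratin 5, Egfl7, Cd68, Ltf, Lyz2, Ptprc, Cd3e, Rgs5 and Notch3 were named after their values were seen. Counts and medians of lists are descriptions, not tests. Alternatives covered scaling, pseudocount, filter, trend and each HBC library left out.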

Additional observations from a re-analysis of the deposited data

How the results depend on the processing

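The count of Krüppel-like genes called higher in RBCs was 3, and it was 2 with equal library medians, 5 under quantile normalization, 4 with values as deposited or equal sums, and 3 to 4 when 1 HBC library was left out. No member was called lower under any alternative, and Klf2 and Klf15 were called under all of them. Over all genes, 5619 were called higher and 2105 lower in RBCs. Equal library medians gave 3789 lower, and quantile normalization gave 3148 higher and 3657 lower. Higher genes were thus 72.7% of calls, and 53.2% and 46.3% under those settings. With 1 HBC library left out, 4931 to 5010 genes were higher and 2004 to 2039 lower.

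With equal library medians, the log2 change turned to -0.41 for Klf3, -0.15 for Klf4, -0.18 for Klf7, -0.16 for Klf9, -0.10 for Sp1 and -0.19 for Sp3. Under quantile normalization it turned to -0.43 for Klf7 to -0.41 for Cd3e and to 0.19 for Ier3. These 9 were the reversals among the genes named. Equal library medians and quantile normalization moved the median of all genes by -0.52 and -0.54, and the cause of the single changes was not tested. Of the 120 values for members, 108 kept their direction and call, 6 passed the threshold, 1 lost it and 5 reversed. No paired analysis was possible, because the labels used here state no pairing of RBC and HBC libraries and the RBC group has only 1 library. The depth in reads is unknown, which limits what can be said of Klf2 in HBC libraries and of other genes near single reads.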
